A study of Mus musculus with 8 samples.

Results

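The extracellular matrix and fibrosis genes described here are 50 genes that encode collagens, other matrix proteins, the enzymes that crosslink or cut them and the TGF-beta genes that regulate them. They were chosen by name, with earlier results of these data known, so shares set beside all genes below only describe the list. A member was any array probe whose RefSeq accession belongs to 1 of the 50 symbols. All 50 had a probe, 79 probes in all, and 45 of the 50 gave a signal above background that could be tested, among 26556 genes and unnamed transcripts tested in the series. RNA from whole liver of mice 10 to 11 weeks old was measured on 1-colour arrays, 1 array per sample, to ask how loss of Bcl6, a repressor of transcription, bears on the difference between male and female liver. The 4 groups were wild-type males, males with a liver-specific knockout of Bcl6, wild-type females and females with the same knockout, each with n = 2 arrays. The promoter of the deleting enzyme, the exons removed, the strain and whether the wild-type animals carried an unrecombined allele are not given in the sources used here. A knockout specific to the liver would act in the cells that its promoter reaches, while the RNA came from every cell of the organ.

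In healthy liver most of the matrix lies in thin networks around the vessels and sinusoids. Stellate cells and portal fibroblasts are its main source of fibrillar collagen, endothelial cells make much of the basement membrane, and hepatocytes secrete plasma matrix proteins such as fibronectin and vitronectin. In fibrosis stellate cells turn into myofibroblasts, largely under TGF-beta, and lay down type I and type III collagen faster than metalloproteinases clear it. In a bulk sample a change in the number of cells of a type and a change in RNA per cell cannot be told apart.

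An array had 33677 to 36459 spots well above background, and precision is limited by how few arrays there are. Levels below are log2 signals relative to the 75th percentile of the array, and differences are log2 differences between group means with the SE of the fit, limma over all 8 arrays. A gene passed the test, and is then said to be higher or lower, if its p-value adjusted by the Benjamini-Hochberg method over the 26556 was under 0.05. Bcl6 itself was read by 1 probe whose position relative to the deletion is not known here. Its level did not fall with the knockout label. It measured 4.49 and 4.01 in males labelled knockout against 3.97 and 2.91 in wild-type males. In females labelled knockout it measured 1.62 and 4.41, against 2.95 and 0.86 in wild-type females. This probe checks neither label, so the groups are called labelled knockout throughout. All 8 arrays shared 1 slide, with the females in its first row and the males in its second, so that slide row and sex cannot be told apart. Each of the 12 hepatocyte markers checked was well above background on at least 1 array of every group.

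Promoters are shown for the 4 genes with the widest spread of group levels among the members that passed the test and have an entry in the RefSeq promoter table. Each sequence is the 250 bases before the annotated start, 5′ to 3′ on the strand of the gene, build GRCm38.p6. Mmp14 lies at chr14:54431348-54431597 on the plus strand, Col8a1 at chr16:57754738-57754987 on the minus strand, Col5a3 at chr9:20815068-20815317 on the minus strand and Col27a1 at chr4:63215162-63215411 on the plus strand, and no other gene is annotated over these 4 windows. Capitals mark every match, on either strand, to TTCNNNGAA (the STAT palindrome), TGANTCA (the AP-1 site), CAGACA (the Smad-binding element), GGGCGG (the GC box of Sp1), TATAAA (the TATA box) or CCAAT (the CCAAT box), and a run of capitals can hold matches that adjoin or overlap.
Mmp14: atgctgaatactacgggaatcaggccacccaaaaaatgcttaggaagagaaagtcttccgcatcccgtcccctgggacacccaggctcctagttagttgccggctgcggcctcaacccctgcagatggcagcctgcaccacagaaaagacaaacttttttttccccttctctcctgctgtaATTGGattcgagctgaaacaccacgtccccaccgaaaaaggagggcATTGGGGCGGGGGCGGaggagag
Col8a1: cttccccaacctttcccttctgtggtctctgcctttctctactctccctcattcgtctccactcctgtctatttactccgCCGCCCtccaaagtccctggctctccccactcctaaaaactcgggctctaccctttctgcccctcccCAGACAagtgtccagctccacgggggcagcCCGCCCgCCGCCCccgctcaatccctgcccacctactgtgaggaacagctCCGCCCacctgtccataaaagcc
Col5a3: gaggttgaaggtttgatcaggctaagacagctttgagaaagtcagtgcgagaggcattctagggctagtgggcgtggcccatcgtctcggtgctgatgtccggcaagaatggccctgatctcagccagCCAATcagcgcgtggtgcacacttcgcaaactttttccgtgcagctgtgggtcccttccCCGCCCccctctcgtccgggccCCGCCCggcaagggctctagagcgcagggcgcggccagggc
Col27a1: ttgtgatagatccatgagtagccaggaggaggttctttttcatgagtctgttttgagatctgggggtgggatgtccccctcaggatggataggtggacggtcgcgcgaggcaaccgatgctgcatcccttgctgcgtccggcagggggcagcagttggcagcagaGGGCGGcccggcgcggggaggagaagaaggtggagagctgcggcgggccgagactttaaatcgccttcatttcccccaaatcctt
The Mmp14 window held 2 matches to GGGCGG and 2 to CCAAT, and the Col8a1 window held 4 to GGGCGG and 1 to CAGACA. The Col5a3 window held 2 to GGGCGG and 1 to CCAAT, and the Col27a1 window held 1 to GGGCGG.

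Of the 50 genes 33 had such a window, and 27025 genes did in all. GGGCGG was in 20 of the 33 windows (60.6%), against 35.4% of all. CAGACA was in 10 of 33 (30.3%), among them Col1a2, Col3a1 and Sparc, against 19.3% of all. CCAAT was in 15 (45.5% against 37.5%), TATAAA in 6 (18.2% against 14.3%) and TGANTCA in 2 (6.06% against 7.82%), Col6a1 and Mmp13. TTCNNNGAA was in 0 of 33 windows against 8.13% of all, and TTCCNNGAA, a form of it that Bcl6 also binds, in 0 against 4.74%; these letters are not in these windows, which says nothing of binding elsewhere. Col4a1 and Col4a2 share a promoter region: their windows of 300 bases, 50 of them after the start, overlap by 78 bases on opposite strands. Col3a1 and Col5a2, Col6a2 and Col6a1, and Dcn and Lum are neighbours on their chromosomes.

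In males the matrix genes differed between genotypes mostly in 1 direction. Of the 45 tested, 18 were higher in the arrays labelled knockout, 1 was lower and 26 did not pass, while over all genes 10.7% passed: 5.77% of all were higher and 4.93% lower. The 18 were the collagens Col1a1, Col1a2, Col3a1, Col4a1, Col4a2, Col6a1, Col6a3, Col8a1 and Col22a1, the basement membrane genes Lamb1, Nid1 and Hspg2, the glycoproteins Fbn1, Vtn and Sparc, the metalloproteinase Mmp14, its inhibitor Timp2 and the receptor Tgfbr2, and the 1 lower gene was Col27a1. The median difference was 0.48 over the 45 (0.44 with genes below background in a whole group at their bound), against -0.04 over all genes, and 41 of 45 (91.1%) lay above 0, against 45.5% of all genes. At an unadjusted p under 0.05 there were 29 of 45, against 27.2% of all genes. Because the list was chosen with earlier results known, these shares and medians describe it and do not test it. The count of 19 fell to 9 without wild-type male replicate 1, 8 without wild-type male replicate 2, 5 without labelled-knockout male replicate 1, 4 without labelled-knockout male replicate 2 and 11 without either female array labelled knockout, and it was 18 without either wild-type female array. In such a refit the array left alone in its group is assumed to vary like the other groups. With no scaling of the arrays or no filter on dim probes 9 passed, and with only the male arrays in the fit 11.

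**Figure D1:**
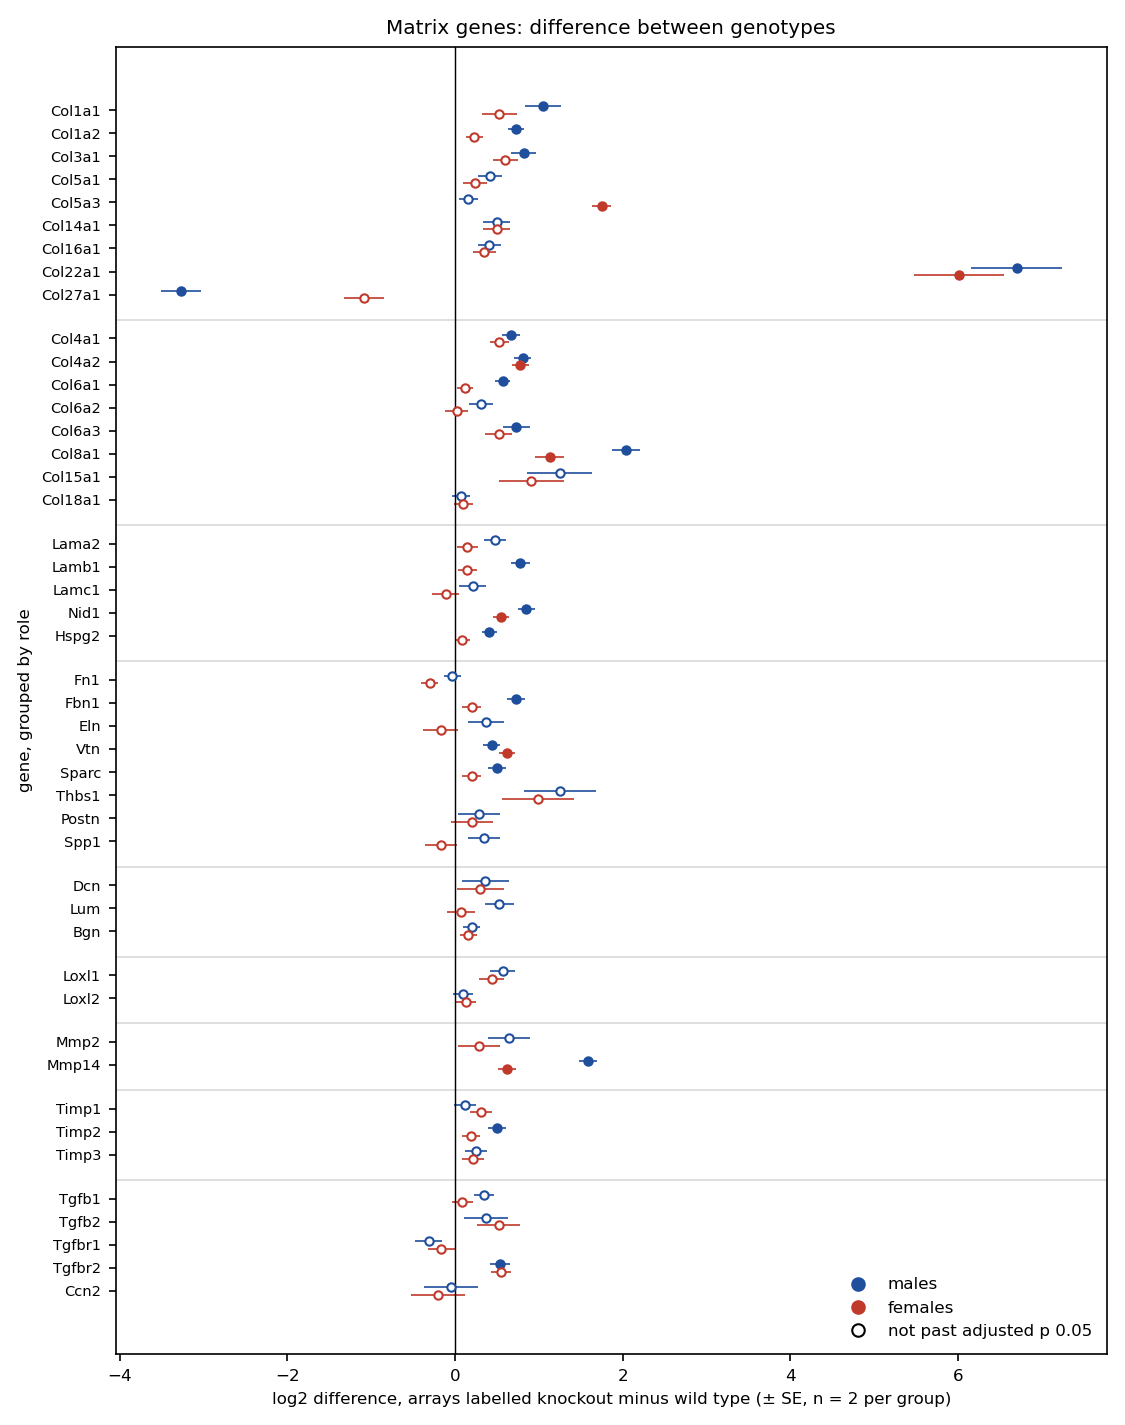
Log2 difference between arrays labelled knockout and wild-type arrays (x axis, ± SE, n = 2 per group) for the 45 tested matrix genes (y axis), grouped by role, in males (blue) and females (red); filled points passed the test. Most points lie to the right of 0, with Col22a1 at 6.70 and 6.01 and Col27a1 at -3.27 and -1.08 far from the rest.

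Of the 11 fibrillar and fibril-associated collagens 9 were tested, and in males 4 were higher and 1 lower. Col1a1, the main chain of type I collagen, measured -1.05 and -0.84 in wild-type males against 0.17 and 0.04 in males labelled knockout, a difference of 1.05 ± 0.21 or 2.07-fold (limma adjusted p = 0.0318). Its partner chain Col1a2 measured 2.18 and 2.09 against 2.88 and 2.85, a difference of 0.73 ± 0.10 (adjusted p = 0.0093). Col3a1, the type III collagen that accompanies type I in scar, measured 1.27 and 1.17 against 2.19 and 1.89, a difference of 0.82 ± 0.15 (adjusted p = 0.0238). Both arrays labelled knockout lay above both wild-type arrays for these 3 genes. With 2 arrays a group such a gap nearly follows from passing the test. It was also seen in many members that did not pass, and its share over all genes was not counted. Here and below it describes the arrays and adds no support. Leaving out 1 array ended the call of Col1a1 (adjusted p 0.0598 to 0.145) and of Col3a1 (0.0511 to 0.116) for each of the 4 male arrays and the 2 female arrays labelled knockout. It ended that of Col1a2 without either male array labelled knockout (0.0673 and 0.0661) or wild-type male replicate 2 (0.0559).

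The 2 collagens furthest from the rest, Col22a1 and Col27a1, moved in opposite directions. Col22a1, a collagen of tissue junctions, was not well above background on either wild-type male array (-4.49 and -6.21) and measured 1.04 and 1.66 in males labelled knockout, at least 48.1-fold higher (difference 6.70 ± 0.54, limma adjusted p = 0.00172). In such a bound the dim group is raised, array by array, to the dimmest signal still called well above background there. This probe was kept for testing only through the groups labelled knockout. Its p-values in both sexes thus rest partly on signals not well above background. The gene has a second probe of the same accession that was well above background on all 8 arrays and nearly flat: -3.76 and -3.39 in wild-type males against -3.54 and -3.37, a difference of 0.12, so the 2 probes disagree and the change rests on 1 of them. Which of them reads the liver transcript was not tested. Col27a1, a fibrillar collagen best known from cartilage, measured -0.98 and -1.18 in wild-type males against -4.34 and -4.35, not well above background, in males labelled knockout, at least 8.81-fold lower (difference -3.27 ± 0.24, adjusted p = 0.00129). Both calls held without any 1 array (highest adjusted p 0.018 and 0.0154). Of the 4 other tested members of the group, Col5a1, Col5a3, Col14a1 and Col16a1, differences lay above 0 in males and none passed.

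Of the 8 basement membrane and network collagens 5 (62.5%) were higher in males and 0 lower. Col4a1 and Col4a2 form the type IV network of every basement membrane. Col4a1 measured 0.92 and 0.83 in wild-type males against 1.5 and 1.58 in males labelled knockout, a difference of 0.67 ± 0.11 (limma adjusted p = 0.0187). Col4a2 measured 0.83 and 0.79 against 1.62 and 1.62, a difference of 0.81 ± 0.10 (adjusted p = 0.0071). The pair thus differed by nearly the same amount. Type VI collagen forms beaded filaments around cells: Col6a1 measured 0.47 and 0.51 against 1.02 and 1.1, a difference of 0.57 ± 0.09 (adjusted p = 0.0169), and Col6a3 measured -0.62 and -0.80 against -0.15 and 0.19, a difference of 0.73 ± 0.16 (adjusted p = 0.0384). Col8a1, a short network collagen of vessel walls, measured -0.98 and -1.18 against 0.78 and 1.15, a difference of 2.04 ± 0.17 or 4.11-fold (adjusted p = 0.00172). No array labelled knockout overlapped a wild-type array for these 5 genes, as nearly follows from passing the test. Col6a2 (0.31), Col15a1 (1.25) and Col18a1 (0.07) did not pass. The Col15a1 probe was well above background on 0 wild-type and 2 labelled-knockout male arrays. It was kept for testing only through the groups labelled knockout, so its difference rests partly on signals not well above background. Its other probe was well above background on 0 of 8 arrays. A second Col6a3 probe, well above background on 7 arrays, gave 0.37, and the mean of both probes did not pass. Without 1 array, Col8a1 kept its call each time (highest adjusted p 0.0167), Col4a2 lost it without labelled-knockout male replicate 1 (0.0549) or 2 (0.0584), Col4a1 (0.0584 to 0.116) and Col6a1 (0.0683 to 0.115) lost it without each male array, and Col6a3 without each male array and each female array labelled knockout (0.0646 to 0.173).

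Of the 5 other basement membrane genes 3 were higher in males and 0 lower. Nid1, nidogen, which links laminin to type IV collagen, measured 0.53 and 0.54 in wild-type males against 1.36 and 1.41 in males labelled knockout, a difference of 0.85 ± 0.10 (limma adjusted p = 0.00535). Lamb1, a laminin beta chain, measured 0.40 and 0.65 against 1.31 and 1.30, a difference of 0.78 ± 0.11 (adjusted p = 0.0125). Hspg2, the proteoglycan perlecan, measured 1.73 and 1.64 against 2.08 and 2.11, a difference of 0.41 ± 0.09 (adjusted p = 0.0465). The wild-type and labelled-knockout arrays did not overlap for any of the 3, which again adds nothing to the calls. Lama2 (0.48, adjusted p = 0.0725) and Lamc1 (0.21) did not pass, and a second Lama2 probe, well above background on 4 arrays, gave -0.81. Second probes of Lamb1 and Nid1 gave smaller differences, down to 0.32 and 0.29. Without 1 array, Nid1 lost its call for labelled-knockout male replicate 2 (0.051), Lamb1 for labelled-knockout male replicates 1 (0.0768) and 2 (0.0823), and Hspg2 for each male array and each female array labelled knockout (0.0832 to 0.209).

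Among fibronectin, the elastic fibre genes and the adhesive glycoproteins, 3 of 8 were higher in males. Fbn1, fibrillin of the microfibrils that store latent TGF-beta, measured -2.12 and -1.99 in wild-type males against -1.30 and -1.35 in males labelled knockout, a difference of 0.73 ± 0.11 (limma adjusted p = 0.0136). Sparc, a collagen-binding glycoprotein, measured 6.28 and 6.12 against 6.75 and 6.64, a difference of 0.50 ± 0.11 (adjusted p = 0.0373). Vtn, vitronectin, which hepatocytes secrete into plasma, measured 8.86 and 8.74 against 9.28 and 9.21, a difference of 0.44 ± 0.10 (adjusted p = 0.0399). For each of the 3 the groups did not overlap, which nearly follows from passing the test. Fn1, fibronectin, measured 7.69 and 7.76 against 7.74 and 7.65, with overlapping arrays and a difference of -0.03 ± 0.10 (adjusted p = 0.883). Spp1, osteopontin, measured 2.07 and 2.34 against 2.47 and 2.64, a difference of 0.35 ± 0.19 that did not pass (adjusted p = 0.298). Eln, Thbs1 and Postn did not pass either (0.37, 1.25 and 0.29), and Thbs1 was well above background on 0 wild-type and 1 labelled-knockout male arrays. Thbs1 was kept for testing only through the females labelled knockout. Fbn1 lost its call without wild-type male replicate 1 (0.0592) and labelled-knockout male replicates 1 (0.085) and 2 (0.0805). Sparc (0.0666 to 0.187) and Vtn (0.0741 to 0.193) lost theirs without each male array and each female array labelled knockout.

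Among the enzymes and their inhibitors was the matrix gene with the smallest adjusted p in males. Mmp14, a membrane metalloproteinase that cuts fibrillar collagen and activates Mmp2, measured -1.73 and -1.91 in wild-type males against -0.26 and -0.19 in males labelled knockout, 3.01-fold higher (difference 1.59 ± 0.11, limma adjusted p = 0.000824), and no array left out ended the call (highest adjusted p 0.0131). Mmp2, the gelatinase it activates, measured -3.34 and -3.39 against -2.59 and -2.83, with groups that did not overlap and a difference of 0.65 ± 0.25 that did not pass (adjusted p = 0.166; 0.0299 without either wild-type female array). Timp2, an inhibitor that also bridges both enzymes, measured 2.81 and 2.61 against 3.27 and 3.16, a difference of 0.50 ± 0.11 (adjusted p = 0.0453). Timp1, the inhibitor induced in fibrosis, measured 0.26 and 0.56 against 0.52 and 0.53, overlapping, with a difference of 0.12 ± 0.13 (adjusted p = 0.609). Timp3 (0.25) and the crosslinking enzymes Loxl1 (0.57) and Loxl2 (0.10) did not pass. A second Timp2 probe gave 0.30, and the mean of both probes did not pass. Timp2 lost its call without each of the 8 arrays (0.054 to 0.21).

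The small proteoglycans Dcn, Lum and Bgn, which coat collagen fibrils, had differences of 0.36, 0.53 and 0.20 in males, and none passed. Of the TGF-beta genes 1 of 5 was higher: Tgfbr2, the receptor that binds the ligand first, measured 1.92 and 2.10 in wild-type males against 2.42 and 2.66 in males labelled knockout, a difference of 0.54 ± 0.12 (limma adjusted p = 0.0483), a call lost without each of the 8 arrays (0.0636 to 0.224). Tgfb1, the main ligand in fibrosis, measured -1.02 and -1.15 against -0.76 and -0.70, a difference of 0.35 ± 0.12 (adjusted p = 0.129) with groups that did not overlap. Ccn2 (listed as Ctgf), a secreted protein used as a readout of TGF-beta signalling, measured 1.24 and 0.94 against 0.95 and 1.12, overlapping, with a difference of -0.05 ± 0.32 (adjusted p = 0.939). Tgfb2 (0.37) and Tgfbr1 (-0.31) did not pass, and second probes gave 1.35 for Tgfb2 and 0.17 for Tgfbr1.

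**Figure D2:**
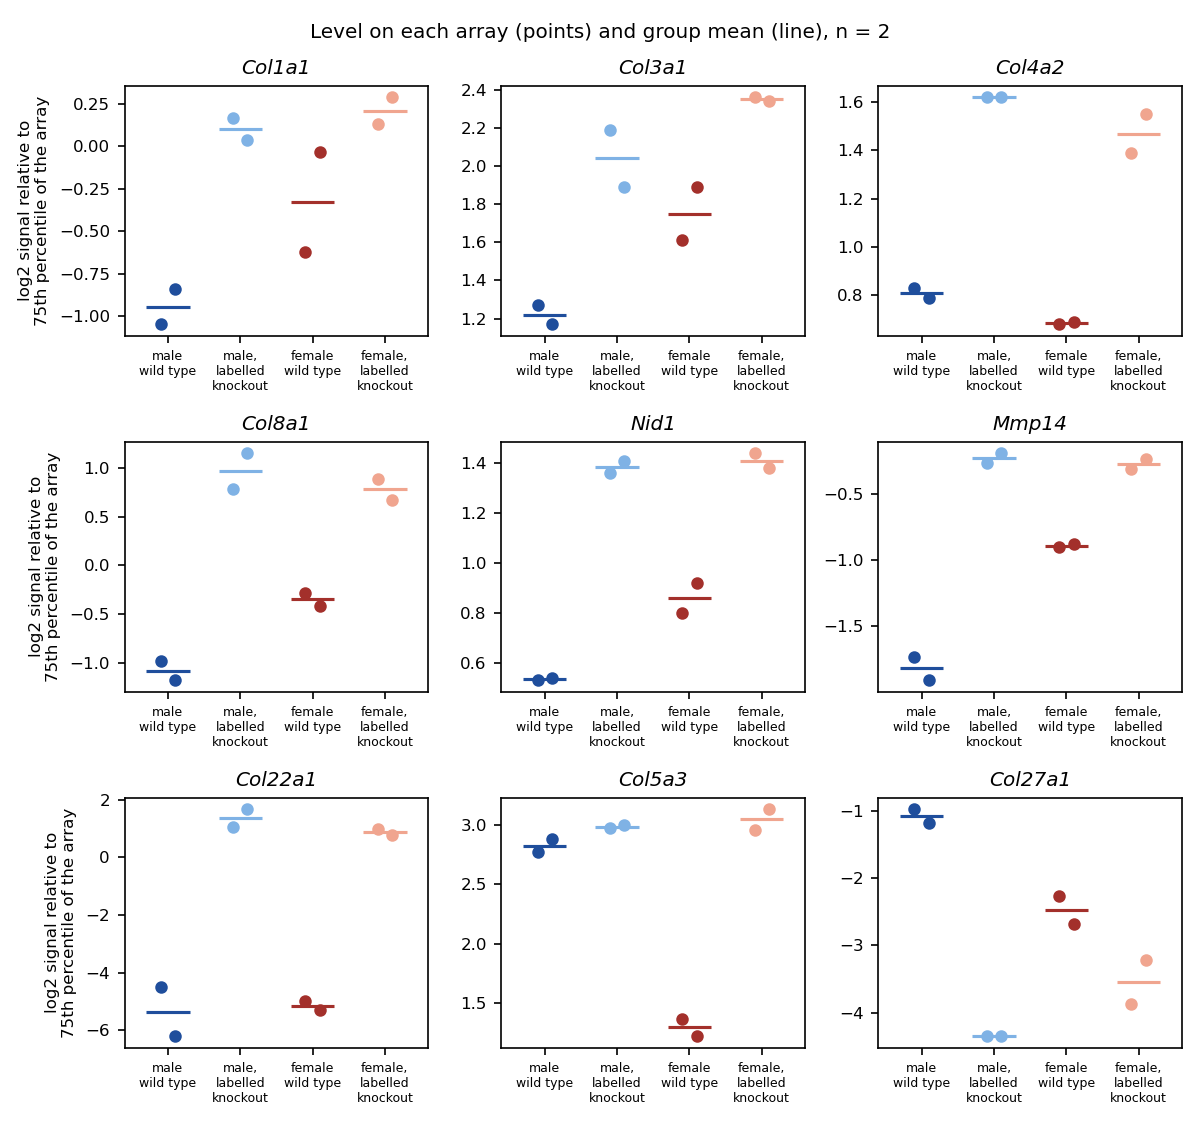
Log2 signal relative to the array's 75th percentile (y axis, a separate scale in each panel) of 9 matrix genes on each array (points) with the group mean (line), n = 2 per group. For Mmp14 both labelled-knockout groups lie at about the same level and the wild-type groups at different ones, and for Col5a3 the wild-type females, at 1.37 and 1.22, stand apart from the other 6 arrays.

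In females fewer matrix genes passed: 7 of 45 were higher in the arrays labelled knockout, 0 were lower, and 38 did not pass, while over all genes 5.93% passed: 3.48% of all were higher and 2.45% lower. The 7 were Col5a3, Col22a1, Col4a2, Col8a1, Nid1, Vtn and Mmp14. The median difference was 0.23 against 0.00 over all genes, 38 of 45 (84.4%) lay above 0 against 50.2% of all genes, and 17 of 45 had an unadjusted p under 0.05, against 24.9% of all genes. The count was 3 without labelled-knockout female replicate 1, 2 without labelled-knockout female replicate 2, 4 without wild-type female replicate 1, 3 without wild-type female replicate 2, 4 without either male array labelled knockout and 6 without either wild-type male array. With no scaling it was 3, with no filter on dim probes 2, with only the female arrays in the fit 2, and with a prior spread that follows intensity 11.

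Col5a3, a minor chain of type V collagen, had the smallest adjusted p in females. It measured 1.37 and 1.22 in wild-type females and 2.96 and 3.13 in females labelled knockout, 3.35-fold higher (difference 1.75 ± 0.11, limma adjusted p = 0.00124; highest 0.0128 without 1 array). Its second probe, well above background on 7 arrays, gave a difference of 0.98, and the mean of both probes gave 1.36 and did not pass (adjusted p = 0.0708). Col22a1 measured -4.98 and -5.30, not well above background, against 0.98 and 0.76, at least 39.8-fold higher (difference 6.01 ± 0.54, adjusted p = 0.00424; highest 0.0375 without 1 array), and its second probe again stayed flat, with a difference of 0.04. Col27a1 measured -2.26 and -2.68 against -3.87 and -3.22, without overlap, a difference of -1.08 ± 0.24 that did not pass (adjusted p = 0.0602; 0.0496 with a prior spread that follows intensity).

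**Figure D3:**
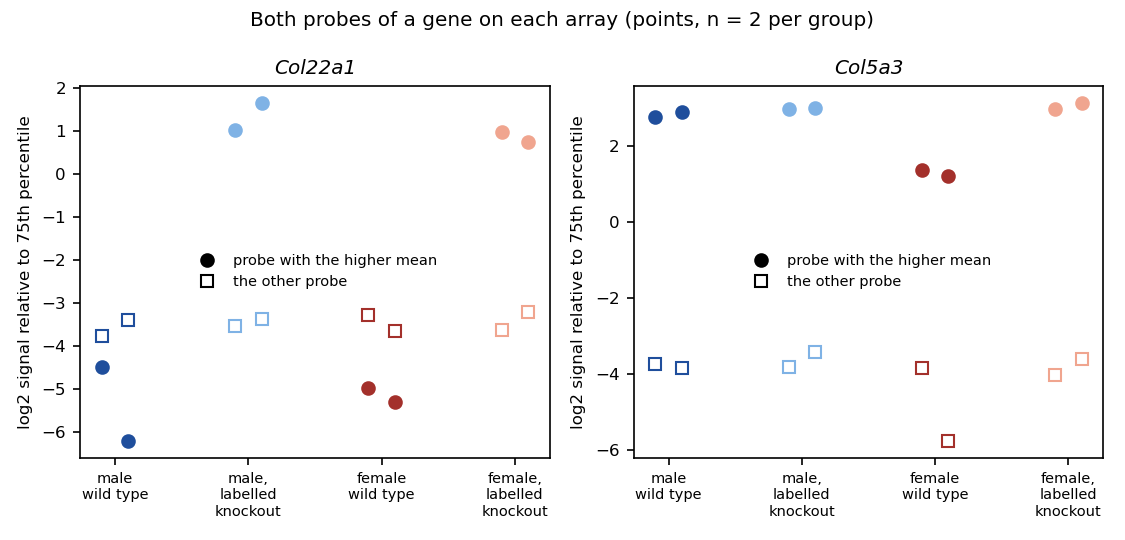
Log2 signal relative to the array's 75th percentile (y axis) of both probes of Col22a1 and of Col5a3 on each array (points, n = 2 per group); filled circles are the probe that stands for the gene and open squares the other probe. The other Col22a1 probe stays between -3.76 and -3.22 on all 8 arrays, while the probe used runs from -6.21 to 1.66.

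The other 5 genes were also higher in males. Col8a1 measured -0.28 and -0.42 in wild-type females and 0.89 and 0.67 in females labelled knockout, 2.19-fold higher (difference 1.13 ± 0.17, limma adjusted p = 0.0187). Col4a2 measured 0.68 and 0.69 against 1.39 and 1.55, a difference of 0.78 ± 0.10 (adjusted p = 0.012). These network collagens did not overlap between the groups, and neither did the next 3 genes, as nearly follows from passing the test. Nid1 measured 0.80 and 0.92 against 1.44 and 1.38, a difference of 0.55 ± 0.10 (adjusted p = 0.0304). Mmp14 measured -0.90 and -0.88 against -0.31 and -0.23, a difference of 0.62 ± 0.11 (adjusted p = 0.0292). Vtn, which hepatocytes make, measured 8.60 and 8.65 against 9.22 and 9.26, a difference of 0.62 ± 0.10 (adjusted p = 0.0222). Without 1 array, Col4a2 lost its call for labelled-knockout female replicate 2 (0.0635), Col8a1 for labelled-knockout female replicates 1 (0.104) and 2 (0.0625) and wild-type female replicate 2 (0.071), Vtn (0.0548 to 0.105) and Mmp14 (0.0652 to 0.122) for every array but the wild-type males, and Nid1 for each of the 8 (0.0562 to 0.148).

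Among genes much used to describe liver fibrosis, the 8 that follow did not pass in females, where 5.93% of all genes did. Col1a1 measured -0.62 and -0.03 in wild-type females and 0.13 and 0.29 in females labelled knockout, without overlap, a difference of 0.53 ± 0.21 (limma adjusted p = 0.187) that ran from 0.23 to 0.83 when 1 array was left out. Col3a1 measured 1.61 and 1.89 against 2.36 and 2.34, a difference of 0.60 ± 0.15 (adjusted p = 0.0754; 0.029 with normexp background correction and 0.0357 with a prior spread that follows intensity). For both collagens each array labelled knockout lay above each wild-type array, a gap that adds no support to differences that did not pass. Fn1 measured 8.12 and 8.0 in wild-type females against 7.81 and 7.72, a difference of -0.30 ± 0.10 (adjusted p = 0.148). Timp1 measured 0.13 and 0.12 against 0.50 and 0.36, a difference of 0.31 ± 0.13 (adjusted p = 0.213). The main ligand and the readout of its signalling had smaller differences: Tgfb1 measured -0.89 and -0.77 against -0.62 and -0.86 (difference 0.09 ± 0.12, adjusted p = 0.677), and Ccn2 1.57 and 0.65 against 1.14 and 0.69 (difference -0.20 ± 0.32, adjusted p = 0.744; -0.66 without wild-type female replicate 2 and 0.27 without replicate 1). Mmp2 measured -3.02 and -2.23 against -2.35 and -2.33 (difference 0.29 ± 0.25, adjusted p = 0.525; -0.11 without wild-type female replicate 1 and 0.68 without replicate 2), and Spp1 2.57 and 2.98 against 2.46 and 2.75 (difference -0.17 ± 0.19, adjusted p = 0.622; -0.38 to 0.04 without 1 array). For these 4 the groups overlapped. Col4a1 (0.53, adjusted p = 0.0502) and Tgfbr2 (0.55, adjusted p = 0.0595) lay closest to the threshold, and both passed with quantile normalization (0.0407 and 0.0494).

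The 6 genes higher in both sexes were Col22a1, Col4a2, Col8a1, Mmp14, Nid1 and Vtn, 33.3% of the 18 higher in males and 85.7% of the 7 higher in females. The 12 that passed in males and not in females, Col1a1, Col1a2, Col3a1, Col4a1, Col6a1, Col6a3, Fbn1, Hspg2, Lamb1, Sparc, Tgfbr2 and Timp2, all had female differences above 0, between 0.09 and 0.60. Their male and female differences were not shown to differ: the test of the difference itself gave log2 values from -0.02 to 0.63 with limma adjusted p from 0.373 to 0.987. With signs kept, the male difference lay above the female one for 35 of the 45 genes (77.8%), against 46.6% of all genes. This counts direction and not size: a less negative male value counts as above. The median of male minus female difference was 0.26 against -0.02. That test passed for 1 gene of 45, Col5a3, against 0.192% of all genes (0.0904% with the larger male value and 0.102% with the larger female value). Its difference was 0.16 ± 0.11 in males (2.77 and 2.88 against 2.97 and 3.0) and 1.75 ± 0.11 in females, male minus female -1.59 ± 0.16 (adjusted p = 0.0365), and this call was lost without each of the 8 arrays (0.0505 to 0.191), with no scaling (0.0552), with no filter on dim probes (0.16) and with the mean of its probes (-1.19, 0.567).

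In wild-type livers most matrix genes measured less in males than in females, and few passed the test. Of 45, 3 were lower in males (Mmp14, Fbn1 and Col6a1) and 1 was higher (Col5a3), while over all genes 0.964% passed, 0.603% higher and 0.362% lower in males. The median was -0.32 against 0.02 over all genes, and 37 of 45 lay below 0; 17.8% lay above 0, against 53.6% of all genes. At an unadjusted p under 0.05 there were 25 of 45, against 18.0% of all genes. The wild-type male arrays of this comparison are those of the male genotype comparison, and the wild-type female arrays those of the female one, so a low wild-type value enters both. Leaving out 1 array left 1 or 2 of the 4 calls: 2 without either wild-type female array and 1 without each of the other 6. With no scaling 1 gene passed, higher, and 0 were lower; normexp background correction gave 2 higher and 5 lower.

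Mmp14 measured -1.73 and -1.91 in wild-type males and -0.90 and -0.88 in wild-type females, a difference of -0.93 ± 0.11 (limma adjusted p = 0.0232), lost without any 1 array but wild-type female replicate 2 (0.0517 to 0.105). Fbn1 measured -2.12 and -1.99 against -1.35 and -1.16, a difference of -0.81 ± 0.11 (adjusted p = 0.0416). Col6a1 measured 0.47 and 0.51 against 1.18 and 1.22, a difference of -0.71 ± 0.09 (adjusted p = 0.0364). The sexes did not overlap for the 3 genes, and the calls of Fbn1 (0.054 to 0.128) and Col6a1 (0.0641 to 0.14) were lost without each of the 8 arrays. Col5a3 ran the other way, with 2.77 and 2.88 in males against 1.37 and 1.22 in females, 2.89-fold higher (difference 1.53 ± 0.11, adjusted p = 0.00487; highest 0.0416 without 1 array; 0.141 with the mean of its probes). Of those that did not pass, Col1a2 lay closest to the threshold (-0.63 ± 0.10, adjusted p = 0.0557), Lum had -0.94 ± 0.17 (adjusted p = 0.0753), and Col27a1 had 1.39 ± 0.24 (adjusted p = 0.0689).

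Between males and females labelled knockout, 0 of the 45 passed (limma; 4 at an unadjusted p under 0.05, against 6.01% of all genes), while over all genes 0.0828% did, 0.0603% higher and 0.0226% lower in males. The median was -0.08 against 0.01 over all genes. The sex difference was larger in size between the wild-type sexes than between those labelled knockout for 36 of the 45 genes (80.0%), against 63.5% of all genes. Its median size was 0.34 between the wild-type sexes and 0.12 between those labelled knockout, and over all genes 0.20 and 0.12. Mmp14 is an example: 0.04 ± 0.11 between the sexes labelled knockout (adjusted p = 0.991), whose 4 arrays lay between -0.31 and -0.19. Col5a3 differed by -0.06 ± 0.11 (adjusted p = 0.981), with all 4 arrays between 2.96 and 3.13. For Col6a1 (-0.26 ± 0.09) and Fbn1 (-0.27 ± 0.11) the males stayed below the females on every array, without passing.

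**Figure D4:**
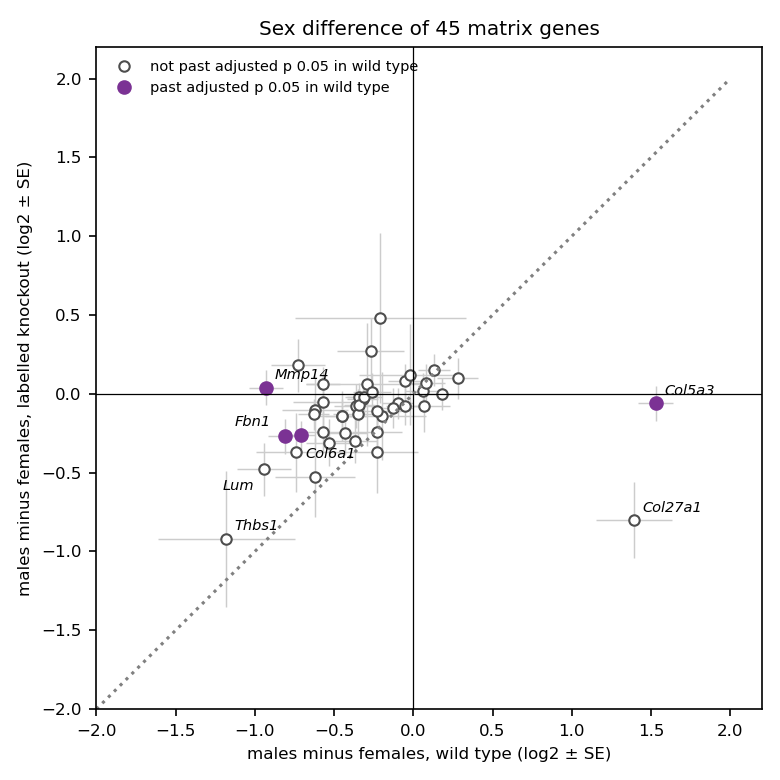
Males minus females in wild type (x axis) against males minus females labelled knockout (y axis), log2 ± SE, for the 45 tested matrix genes; filled points passed the test in wild type and the dotted line marks equal differences. Most points lie left of 0 and nearer 0 on the y axis than on the x axis; Mmp14 goes from -0.93 to 0.04 and Col5a3 from 1.53 to -0.06.

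Markers of the liver's cell types are given beside these genes, and their part in the results was not tested. For stellate cells, the main collagen source, 2 of 12 markers (16.7%, against 10.7% of all genes) were higher in males labelled knockout (Pdgfrb, 0.67; Colec11, 0.57), and 1 (8.33%, against 5.93%) was lower in females (Lrat, the enzyme that stores vitamin A, -1.25). Their summed signal, in units of the array's 75th percentile, was 51.6 to 55.5 in wild-type males, 65.0 to 70.6 in males labelled knockout, 63.0 to 70.0 in wild-type females and 69.1 to 71.9 in females labelled knockout. The wild-type males thus had the lowest sums. Here and below a sum adds signals that are not logged, so the brightest markers weigh most in it. Of 14 endothelial markers 4 (28.6%) were higher in males, with Vwf (2.63), Lyve1 (1.07) and Gpr182 (0.59) first, and 1 (7.14%) in females (Vwf, 1.15). The endothelial sums ran from 106 to 111, 150 to 155, 130 to 138 and 145 to 148 in the same order of groups. Of 6 markers of activated myofibroblasts, among them Acta2 and Tagln, 0 passed in either sex (limma; 0 at an unadjusted p under 0.05), and Acta2, smooth muscle actin, measured between 2.88 and 3.07 on all 8 arrays; their sums were 21.4 to 24.2, 22.5 to 26.2, 25.5 to 26.8 and 27.3 to 33.3.

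Portal fibroblast and mesothelial markers had sums of 2.80 to 2.88, 2.88 to 2.98, 3.34 to 3.83 and 2.65 to 4.40, and 0 of 8 tested passed in either sex. Of 5 tested monocyte and neutrophil markers 2 were higher in males (40.0%, against 10.7% of all genes), Ly6c2 (1.96) and Itgam (0.59), with a median difference of 0.59. In females 1 was higher (20.0%, against 5.93%), Ccr2 (1.68), with a median of 0.84. Their sums were 22.5 to 24.0 in wild-type males and 47.3 to 58.3 in males labelled knockout. In females they were 45 to 47.6 in wild type and 38.6 to 49.8 in those labelled knockout. These sums too were lowest in the wild-type males. The single marker differences between the wild-type sexes ran from -2.0 to 0.48, with a median of -0.3. Macrophage and Kupffer cell sums were 132 to 141, 137 to 174, 151 to 152 and 148 to 169, with 0 of 11 markers past the threshold in either sex. Lymphocyte sums were 34.6 to 38.4, 26.5 to 36.2, 19.7 to 33.0 and 19.9 to 21.8, while the median marker difference was 0.67 in males and 0.34 in females. Of 8 cholangiocyte markers 1, Prom1, was higher in each sex (12.5%, against 10.7% of all genes in males and 5.93% in females). The cholangiocyte sums were 1.91 to 1.92, 2.11 to 2.31, 1.96 to 2.17 and 2.77 to 2.77, again lowest in the wild-type males. Hepatocyte sums were 7040 to 7380, 7440 to 7650, 6430 to 6770 and 6710 to 7420. Among the 12 hepatocyte markers Ttr was lower in both sexes and Hpd higher in females. Of these markers 8.33% passed in males, against 10.7% of all genes, and 16.7% in females, against 5.93%. Erythroid sums ran from 299 to 308, 370 to 481, 301 to 340 and 342 to 419. Of 4 tested erythroid markers 1, Alas2, passed in each sex, lower in males and higher in females (25.0%, against 10.7% and 5.93% of all genes). Pancreatic acinar sums ran from 39.6 to 59.2, 19.1 to 21.5, 19.8 to 24.8 and 19.4 to 20.1. Of 4 tested acinar markers 2 passed in males (against 10.7% of all genes), Pnliprp1 higher and Cela1 lower. In females 1 of the 4 passed (against 5.93%), Pnliprp1, again higher. In each wild-type group 1 of the 4 was well above background on neither array, against 0 in each group labelled knockout. A call on such a marker rests partly on signals not well above background. Adipocyte sums stayed between 1.14 and 1.5 with 0 of 2 tested passing.

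**Figure D5:**
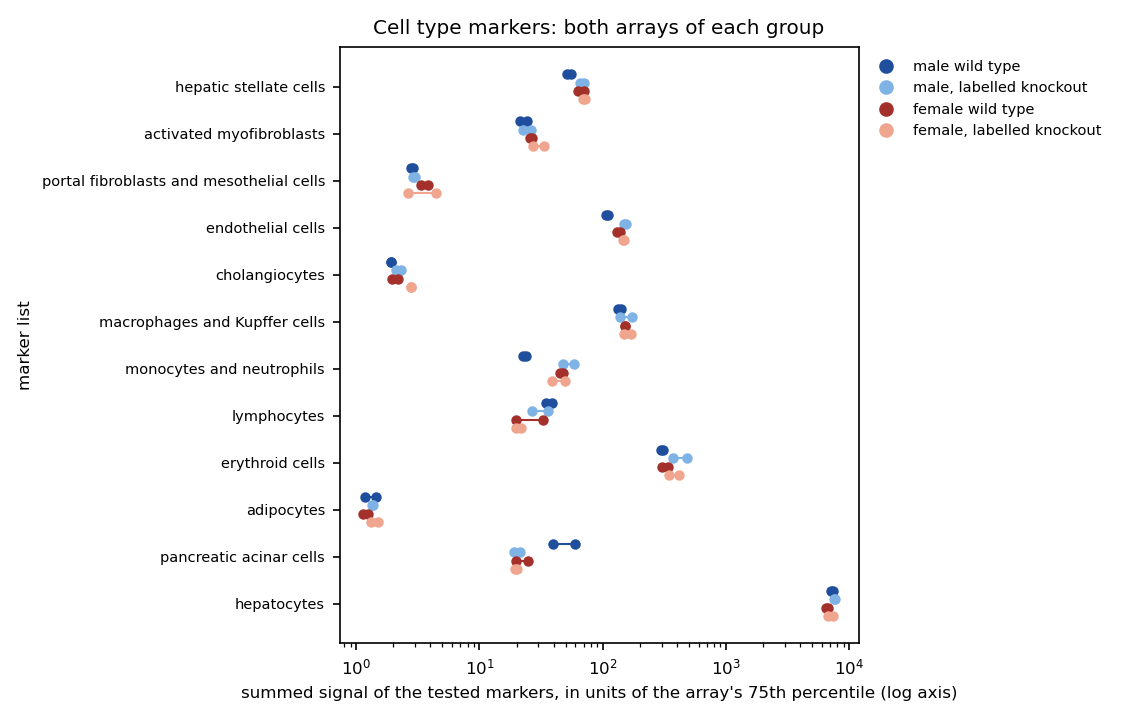
Summed signal of the tested markers of 12 cell type lists (x axis, log scale, in units of the array's 75th percentile) on both arrays of each group (points joined by a line). The wild-type males have the lowest stellate, endothelial, cholangiocyte, and monocyte and neutrophil sums of the 4 groups.

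Of 142 other genes of the same pathways, 113 could be tested: 19 were higher and 2 lower in males labelled knockout (18.6% passed, against 10.7% of all genes), and 7 were higher and 2 lower in females (7.96% against 5.93%), with medians of 0.21 and 0.11. Among the TGF-beta pathway genes 5 of 26 were higher in males and 4 higher and 1 lower in females. The share that passed was 19.2% in each sex, against 10.7% of all genes in males and 5.93% in females. Smad6, an inhibitory Smad of BMP signalling, measured -0.96 and -1.04 in wild-type males, 2.02 and 2.1 in the males labelled knockout, -0.21 and -0.64 in wild-type females and 1.80 and 2.29 in females labelled knockout (differences 3.06 ± 0.21 and 2.47 ± 0.21, limma adjusted p = 0.00087 and 0.0031). Id1, a target of BMP signalling, measured 0.33 and 0.33, 4.0 and 3.69, 3.04 and 2.18, and 3.57 and 3.66 in the same order; it was higher in males (3.51 ± 0.28, adjusted p = 0.00156) and lower in wild-type males than in wild-type females (-2.27, adjusted p = 0.0304). Pdgfa, a growth factor for stellate cells, was higher in both sexes (2.2 and 2.5), as was Ski, a repressor of Smad signalling (1.22 and 0.98). The following 3 genes are named after their values were seen: Ltbp1, which holds latent TGF-beta (0.72 in males), Tgif1, a Smad corepressor (0.86 in females), and Smad7, the inhibitory Smad of TGF-beta signalling, which was lower in females labelled knockout (-1.01, adjusted p = 0.0152) and in wild-type males against wild-type females (-1.10, adjusted p = 0.033).

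Of the 14 genes of collagen processing, Loxl4, a crosslinking enzyme, measured -2.62 and -2.56 in wild-type males, 1.0 and 1.78 in the males labelled knockout, -2.52 and -2.76 in wild-type females and 0.47 and 1.48 in females labelled knockout (differences 3.98 ± 0.38 and 3.62 ± 0.38, limma adjusted p = 0.00312 and 0.00705). P4ha2, a subunit of the enzyme that hydroxylates collagen prolines, was lower in both (-1.5 and -1.72, adjusted p = 0.0253 and 0.0249). Pcolce and Adamts2, which help remove collagen propeptides, were higher in males (0.50 and 0.68). Of 12 other collagens 1 passed in each sex (8.33%, against 10.7% of all genes in males and 5.93% in females). It was Col23a1, at least 4.18-fold higher in males (2.22, adjusted p = 0.00516) and higher by 1.97 in females (adjusted p = 0.012). Over the 12 the median difference was -0.11 in males and 0.1 in females, with 5 and 8 of them above 0. Of 29 other matrix proteins 3 were higher and 1 lower in males (13.8% passed, against 10.7% of all genes). Lama4 (0.72), Efemp2 (0.90) and Mfap4 (0.45) were higher, and the laminin chain Lama3 was lower (-2.91 ± 0.23, adjusted p = 0.00158). Lama3 was well above background on both wild-type male arrays and on neither wild-type female array, at least 8.70-fold higher in the males (adjusted p = 0.00397). In females 1 of the 29 was higher (3.45%, against 5.93% of all genes that passed), Matn2 (0.76), named after its value was seen.

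Of 16 other matrix proteases and inhibitors 2 (12.5%, against 10.7% of all genes) were higher in males, Adamts1 (0.66) and Adamts9 (0.87), and Adamts9 was also lower in wild-type males than in wild-type females (-0.95, limma adjusted p = 0.0224). Of 16 matrix receptors 5 were higher in males (31.2%, against 10.7% of all genes that passed) and 0 in females (against 5.93%). Itga6, the laminin-binding integrin chain, measured 0.32 and 0.12 in wild-type males against 3.96 and 4.13 in males labelled knockout (3.82 ± 0.57, adjusted p = 0.0128), and 0.18 and 1.34 against 2.54 and 4.09 in females, where it did not pass. Itgb8, an integrin chain that activates latent TGF-beta, was well above background only in males labelled knockout, at least 1.51-fold higher than in wild-type males (2.67, adjusted p = 0.00214). It was kept for testing only through that group, so its p-value rests partly on signals not well above background. Itgb5 (0.77), the collagen receptor Ddr1 (2.45) and Itga11 (0.88, named after its value was seen) were higher in males.

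Of the 50 genes 5 were not tested because no probe was well above background on both arrays of any group. Lox, the founding crosslinking enzyme, Mmp9 and Mmp13 were well above background on 0 of 8 arrays by each of their probes, Col5a2 on 2, and Col12a1 on 1 and 3 by its 2 probes. No level can be given for them. A further 5 were tested without being above background on every array: Col22a1 (4 arrays), Thbs1 (4), Col15a1 (5), Col27a1 (6) and Eln (7). The other 40 were well above background on all 8.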

How the data were processed

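The arrays are 1-colour Agilent arrays of RNA from whole liver, 2 per group in 4 groups. The deposited intensities are, per the file headers, background-subtracted signals from Agilent Feature Extraction 11.5.1.1, while version 9.1.3.1 stands in the submitters' processing notes. Values of the deposited table are on the log2 scale: each column equalled the log2 processed signal minus 1 constant (6.989 to 7.297), within 0.01 for 99.98% of the probes compared, with column medians from -3.257 to -3.139, so that its scale and direction are known and it is not centred per gene.

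Outlier spots (55 to 139 an array) and control spots were left out, and 0 spots were saturated. Spots of a probe were averaged (56605 probes) and named through RefSeq accessions on the GRCm38.p6 list (32994 probes, 22911 symbols); Ctgf is Ccn2 there. From the intensity values, log2 was taken and each array's 75th percentile (127 to 158) subtracted. Probes were kept (33586) where 1 group or more had both its arrays well above background, and the kept probe with the highest mean stood for its gene. The 4 group means were fitted with limma 3.58.1 under R 4.3.3 (lmFit, eBayes, 4 residual and 2.07 prior degrees of freedom) with 5 contrasts: genotype in each sex, sex in each genotype, and the male minus the female genotype difference. Adjustment was by Benjamini-Hochberg across the 26556 genes and unnamed transcripts, with a threshold of 0.05; the median SE was 0.162, and 0.229 for the difference of differences. The fit was tested on simulated data. Beyond the replicate names the labels do not say whether replicates were separate animals, so the p-values rest on a spread between arrays that may be technical only.

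Members past the threshold in any contrast are given in full, as are Col1a1, Col3a1, Fn1, Timp1, Tgfb1, Ctgf, Mmp2 and Spp1 whatever their values; of each list of other pathway genes up to 4 with the smallest adjusted p are named, and of each marker list up to 3; 1 marker result is not reported here. Members and lists were chosen with earlier results of these data known. Alternatives were normexp background correction (offset 50, on median spot signals), quantile scaling, the percentile over probes detected on all arrays, no scaling, the deposited table, no filter on dim probes, only probes detected on all arrays, the mean over the probes of 1 gene, the replicate number as a block, an intensity trend, only the 2 groups compared, and leaving out each array. Promoters come from the RefSeq table (GRCm38.p6). Python 3.11.15, pandas 2.3.3, numpy 2.4.6 and matplotlib 3.10.9 were used.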

Additional observations from a re-analysis of the deposited data

Results flagged for a closer look

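The knockout difference of Col5a3 was not the same in the sexes by the test of the difference itself: male minus female difference -1.59 ± 0.16 on the log2 scale (limma adjusted p = 0.0365). Wild-type females measured 1.37 and 1.22, and the other 6 arrays lay between 2.77 and 3.13. The second probe of the gene gave differences of 0.18 in males and 0.98 in females. The call was lost without each of the 8 arrays, with adjusted p between 0.0505 and 0.191.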

How the results depend on the processing

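With 2 arrays a group, small differences are at the limit of what the test can show. Of 31 calls of single matrix genes 0 reversed under any of the 19 alternatives, 7 were kept in every refit without 1 array, and 3 were kept under every alternative that gave a value: Col27a1, Col8a1 and Mmp14 in males. Calls kept of 31 were 13 with no scaling, 11 with no filter on dim probes, 22 with the replicate block and 9 to 22 without 1 array, and 13 of 30 with only the 2 groups compared. Signals not well above background limit Col22a1, Col15a1, Thbs1, Eln and Col27a1.

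The count of 19 genes in males was 9 with no scaling, 9 with no filter and 11 with only the male arrays, and 4 to 18 without 1 array. The count of 7 in females was 3, 2 and 2 under the same settings, 11 with an intensity trend and 2 to 6 without 1 array. The count of 4 between the wild-type sexes was 7 with normexp, 1 with no scaling, 1 with no filter, 2 with the mean of probes, 1 with the replicate block, 8 with an intensity trend, 0 with only the wild-type arrays and 1 to 2 without 1 array. The 1 gene whose genotype difference differed between sexes became 0 with no scaling, no filter, the mean of probes, the replicate block and each array left out. Between the sexes labelled knockout the count was 0 in every setting run. Normexp moved the median from 0.48 to 0.26 in males and from -0.32 to -0.16 between the wild-type sexes; without 1 array these medians ran from 0.40 to 0.55 and from -0.40 to -0.25. With no scaling the median of all genes was -0.11 between the wild-type sexes and -0.10 between those labelled knockout, and the medians of the matrix genes were -0.45 and -0.18. With the replicate block the counts in males and females were 16 and 5; the deviations of same-numbered arrays correlated at -0.002 to 0.102, so the numbers were not taken to pair the samples. The cause of these shifts was not tested. Restricting the fit to 2 groups does not apply to the difference of differences.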
